A study of Mus musculus with 2 samples.

Results

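Smooth muscle cell progenitor-like (SMCP-like) mural cells were taken from skeletal muscle (SkM) of adult mice as cells high in Rgs5 that were low in the main pericyte and vascular smooth muscle cell (VSMC) transcripts and carried at least 2 of 5 further markers. Of the 14654 cells kept from 2 single-cell RNA-seq libraries, 241 met this rule, 182 of 6087 in the library labelled in the embryo and 59 of 8567 in the library labelled in the adult. Both libraries held tdTomato+ cells sorted from muscle of Hic1CreERT2/CreERT2; Rosa26LSLtdTomato/tdTomato mice on C57BL/6J, in which tamoxifen (TAM) lets the Cre recombinase made from the Hic1 locus switch on the tdTomato reporter for good. In the E10-P56 library a single 7.5 mg dose of TAM was given to pregnant dams at embryonic day 10, and in the adult pulse library animals received 5 daily doses of 2.5 mg at 8 weeks.

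The labels give postnatal day 56 as the collection day of both groups, whereas the study's text places the adult collection later. Both groups carried the same alleles, so neither is an unlabelled control, and blood, endothelial and erythroid cells were removed by surface markers during the sort, as the study's methods describe for these cells. The tibialis anterior muscles behind E10-P56 were pooled, and each group was 1 library. No comparison below therefore has a replicate check or a p-value, and the 95% intervals, exact Poisson for levels and exact binomial for shares, cover counting error only. Labelling time, TAM dose, library, sequencing depth, Cell Ranger version and, by the study's text, age at collection differed together. They cannot be told apart. Nor can the progesterone, caesarean delivery and fostering that the study's methods describe for litters traced from the embryo into adulthood.

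Mural cells wrap the endothelium of blood vessels. Pericytes sit along capillaries inside the basement membrane and are known by the potassium channel subunits Kcnj8 and Abcc9, whereas VSMCs ring arterioles and larger vessels and hold a contractile apparatus of smooth muscle actin and myosin. Rgs5, a regulator of G protein signalling, is a general mural transcript, and cells between these states have been discussed as precursors of vascular smooth muscle.

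The cells were chosen by measured values. A member held at least 1500 unique molecular identifiers (UMIs, each a counted transcript molecule) with at most 10% from mitochondrial genes, Rgs5 at 2500 CPM or more (here UMIs of the gene per 1000000 UMIs of the cell), Abcc9, Kcnj8 and Art3 together below 2000 CPM, and Myh11 and Sorbs2 together below 2500 CPM. It also had a UMI of at least 2 of H2-M9 (a non-classical MHC class I gene), Dlk1 (an imprinted membrane protein of the Notch ligand family), Adra2a (the alpha-2A adrenergic receptor), Gm13889 and Kcnk3 (the TASK-1 potassium channel). Pericyte-gated cells had the same Rgs5 minimum and the same limit on Myh11 and Sorbs2, with Abcc9, Kcnj8 and Art3 at 2000 or more. They numbered 411 in E10-P56 against 384 in the adult pulse. VSMC-gated cells had Myh11 and Sorbs2 at 2500 or more without an Rgs5 minimum, and came to 213 and 18. In the adult pulse 3 cells were past both gates and were placed in neither population. Cells that passed every SMCP-like limit except the marker count numbered 64 and 54 and are called other Rgs5-high cells. Fibroblast-gated cells, 4271 and 7037, held at least 3 of Pdgfra, Dpt, Ly6a and Cd34. They had Rgs5 below 500 CPM, and Myh11 and Sorbs2 together below 500 CPM. They served as cells chosen to hold few mural transcripts. These names come from gates and may place cells differently from the study's own clusters.

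The gates cut through a continuous range and did not separate islands of cells. For Rgs5, the lowest member of E10-P56 was at 2584 CPM and the closest cell that failed this limit alone at 2479, with 72 such cells, against 2510, 2358 and 58 cells in the adult pulse. On the pericyte side the highest members were at 1756 and 1930 CPM in E10-P56 and the adult pulse, and the closest cells outside at 2008 and 2044. On the VSMC side the same pair of values was 2419 and 2242 inside, and 2651 and 2948 outside. In the plot of the gate genes the SMCP-like cells spread over the whole corner between the other populations.

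**Figure D1:**
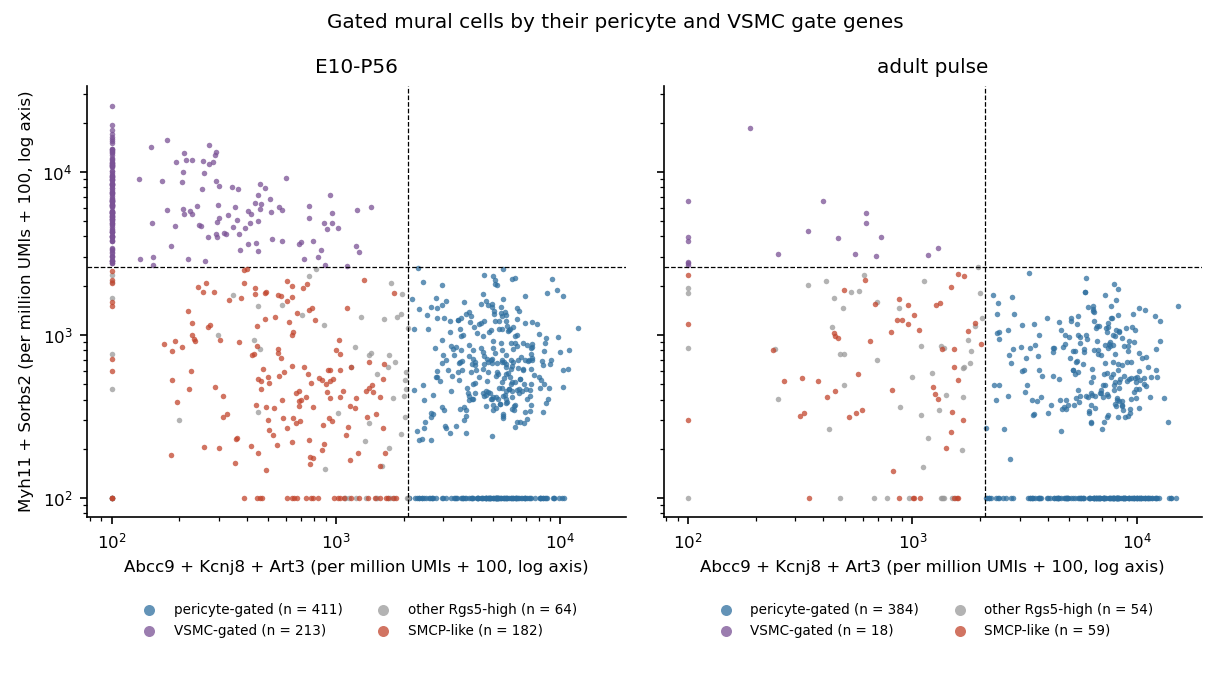
Each point is a cell placed by Abcc9, Kcnj8 and Art3 (x axis) and by Myh11 and Sorbs2 (y axis), both in CPM of the cell plus a constant on log axes, with the gate limits as dashed lines. SMCP-like cells (182 and 59) fill the lower left corner that other Rgs5-high cells (64 and 54) share, and no gap parts them from pericyte-gated or VSMC-gated cells.

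SMCP-like cells made up 2.99% of kept cells in E10-P56 (95% interval 2.58 to 3.45) and 0.689% in the adult pulse (0.525 to 0.887). Pericyte-gated cells made up 6.75% and 4.48% of the same libraries, and VSMC-gated cells 3.50% and 0.210%. The share of members in the library labelled in the embryo thus lay above that of the adult pulse beyond counting error. So did the pericyte-gated and VSMC-gated shares, and that of all cells past the Rgs5 minimum (12.0% against 5.95%). The sort and the depth per cell can set such shares, and their part was not tested. Members were deeper in E10-P56, with a median of 9959.5 UMIs against 4702 in the adult pulse, and a deeper cell is more likely to show 2 markers. When the markers were counted at 1500 UMIs per cell, a setting added after seeing the data, 115 and 30 cells met the rule. They made up 1.89% and 0.350%, and the order of the libraries was the same.

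The 5 markers were carried unevenly. In E10-P56 58 of the 182 cells had all 5 markers, 64 had 4, 34 had 3 and 26 had 2. Of the 59 adult pulse cells none had all 5, 7 had 4, 20 had 3 and 32 had 2. Gm13889 was seen in 178 E10-P56 cells and 57 adult pulse cells, Adra2a in 131 and 41, Dlk1 in 146 and 23, Kcnk3 in 134 and 22, and H2-M9 in 111 and 9. After thinning to 1500 UMIs, Adra2a was found in 28.02% of SMCP-like cells of E10-P56 (72.0% unthinned) and 33.9% of those of the adult pulse (69.5% unthinned). H2-M9 was found in 24.7% and 8.47% (61.0% and 15.3% unthinned), and Dlk1 in 46.2% and 27.1% (80.2% and 39.0% unthinned). Free RNA was not measured. The fibroblast-gated cells, with medians of 9311 and 7851 UMIs, served as the comparison. There Adra2a was found in 0.0702% of thinned cells in E10-P56 against 0.0426% in the adult pulse (0.539% and 0.0995% unthinned), and Dlk1 in 0.656% and 0.597% (3.23% and 1.82% unthinned). These marker shares describe how the cells were chosen and support nothing about them.

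General mural markers that the rule did not use were present in the members. Fibroblast-gated cells were limited in Rgs5, Myh11 and Sorbs2, which fixes in part how little mural RNA they hold. Notch3, the Notch receptor of mural cells, stood at 857 CPM in E10-P56 members (here and below, unless single cells are named, UMIs per 1000000 of the UMIs summed over the population, 95% interval 818 to 897) and 905 (810 to 1008) in the adult pulse, against 6.02 and 5.38 in fibroblast-gated cells. Pdgfrb, the PDGF receptor that mural cells need to reach vessels, was at 760 and 806 CPM. All 9 general mural markers could be compared with pericyte-gated cells in each library. Des was at least 2-fold higher in E10-P56, Pdgfrb, Cspg4 and Gucy1b3 were lower in both libraries, and the rest lay between. Beside this, 7.2% of all genes compared were higher and 11.6% lower in E10-P56, and 6.84% and 9.31% in the adult pulse.

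Immune, erythroid, Schwann and myogenic markers were at or near 0, and endothelial markers were not. Immune markers (9 genes) gave 2 UMIs in E10-P56 members and 0 in those of the adult pulse, with Ptprc (CD45) at 0 in both. Erythroid markers (5 genes) gave 1 UMI in each library. Of 13 endothelial markers, Kdr, Tie1, Cldn5 and Sox17 were at 0 in E10-P56 members, and the summed level of the list was 380 CPM in E10-P56 and 647 CPM in the adult pulse, with Cd36 the most abundant at 167 and 236. No endothelial marker was at 0 in the adult pulse, and Kdr, the VEGF receptor, was at 30.2 CPM on 11 UMIs. Of the 4 endothelial markers compared with pericyte-gated cells, 2 were lower in E10-P56 (Cd36 and Aqp1), and in the adult pulse 3 were higher (Flt1, Aqp1 and Ly6c1) and Cd36 lower. The shares over all genes were 7.2% higher and 11.6% lower in E10-P56, and 6.84% and 9.31% in the adult pulse. Without the 5% of barcodes with the highest doublet scores, which left 53 of 59 members, Aqp1 was at 10.6 CPM and its ratio to pericyte-gated cells went from 4.89 to 0.872. Schwann cell markers (9 genes) summed to 17.03 and 27.4 CPM, myogenic markers (9) to 3.31 and 13.7, tenocyte markers (8) to 69.1 and 65.8, and perineurial markers (7) to 36.0 and 38.4. Of these and the blood cell lists, only the tenocyte gene Thbs4 was high enough to compare with pericyte-gated cells, and it was 2-fold lower in the adult pulse alone. Sox10, Pax7, Myf5 and Myod1 had no UMI in the members of either library.

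Fibroblast transcripts were present, spread over the members for Col3a1 and concentrated in few cells for Dcn. The 16 fibroblast markers summed to 13005 CPM in E10-P56 members and 11411 in the adult pulse, against 70691 and 74749 in fibroblast-gated cells, with Col3a1 the most abundant in the members of both. In E10-P56 15 of the 182 members (8.24%, 4.69 to 13.2) and in the adult pulse 4 of 59 (6.78%, 1.88 to 16.5) held at least 3 of Pdgfra, Dpt, Ly6a and Cd34. These few cells carried 73.6% and 85.2% of all Dcn UMIs of the members. Col3a1 in contrast had a median of 3864 CPM over the single members of E10-P56, a lower quartile of 2269 and no cell at 0. Doublets were not removed, and 10 of 182 and 6 of 59 members lay among the 5% of barcodes with the highest doublet scores of their library. Counts over the fibroblast markers are given with and without these cells.

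Relative to pericyte-gated cells of E10-P56, 428 of 5944 genes were at least 2-fold higher (7.2%) and 692 at least 2-fold lower (11.6%) in SMCP-like cells. The counts in the adult pulse were 402 higher (6.84%) and 547 lower (9.31%) of 5874. Against VSMC-gated cells of E10-P56, 511 of 5618 genes were higher (9.1%) and 534 lower (9.51%). Genes were compared where the mean of the populations was at least 25 CPM, the 11 genes of the rule were left out, and the median log2 ratio over all genes was -0.18, -0.16 and 0.08 in these comparisons. The members were deeper than the pericyte-gated cells (medians of 9959.5 against 3256 UMIs in E10-P56, and 4702 against 3198.5 in the adult pulse), had more mitochondrial UMIs (medians of 3.36% against 2.50%, and 4.97% against 2.95%) and held less of the nuclear RNA Malat1 (35316 against 96597 CPM, and 82476 against 111241). VSMC-gated cells of E10-P56 had a median of 6.79% mitochondrial UMIs, above that of the members. With a mitochondrial limit of 20%, 701 genes were higher and 564 lower than in VSMC-gated cells. The part of depth, mitochondrial UMIs and Malat1 in the differences was not tested. Genes that follow the gate genes had to differ between the gated populations, so the contrast is a description of the cells chosen, and the adult pulse shows only whether the same gates gave the same difference a second time.

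In E10-P56, 166 of 5898 genes (2.81%) stood at least 2-fold above both the pericyte-gated and the VSMC-gated cells, and 175 (2.97%) at least 2-fold below both. The 15 with the greatest margin above both were Piezo2, Rgs16, Agt, Cyp26b1, Adam12, Tmem176a, S100a4, Il6, Prkar2b, Col12a1, C2, Lgals3bp, Anxa1, Cd109 and Rab13. In the adult pulse, which had no part in choosing them, 11 of the 15 were again at least 2-fold above pericyte-gated cells, none was 2-fold below, and 2 (Adam12 and Cd109) had too few UMIs for a ratio.

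Among the signalling genes of this set was Rgs16 (chr1:153740349-153745468, GRCm38), a relative of Rgs5 that speeds the switching-off of G proteins. It was at 253 CPM in SMCP-like, 8.78 in pericyte-gated, 10.95 in VSMC-gated and 2.59 in fibroblast-gated cells of E10-P56, or 28.8-fold above pericyte-gated cells (95% counting interval 16.7 to 54.4). The same populations of the adult pulse held 164, 4.49, 0 and 1.13 CPM, a 36.6-fold difference from pericyte-gated cells (15.9 to 104). The SMCP-like interval lay above that of each other population in both libraries. A UMI of it was missing in 83 of 182 and 39 of 59 members, which at this level and depth does not tell cells without the transcript from cells not sampled. The study also names Rgs16 for these cells, so it is no independent evidence.

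Agt (chr8:124556534-124569706), angiotensinogen, the precursor of the vasoconstrictor angiotensin, was at 168 CPM in SMCP-like, 4.05 in pericyte-gated and 10.95 in VSMC-gated cells of E10-P56. In the adult pulse it was at 41.1, 2.99 and 57.4 CPM, so that members again lay above pericyte-gated cells (13.7-fold, 4.38 to 56.9), whereas the VSMC-gated value from 18 cells overlapped theirs. Fibroblast-gated cells held 28.5 and 8.18 CPM. Il6 (chr5:30013114-30019981), a cytokine also made by stressed stromal cells, was at 68.1 CPM in SMCP-like, 3.38 in pericyte-gated and 9.86 in VSMC-gated cells of E10-P56. Its adult pulse values were 87.7, 1.496 and 0 CPM. Thinned to 1500 UMIs, Il6 was found in 4.40% of SMCP-like (14.3% unthinned) and 2.39% of fibroblast-gated cells of E10-P56 (8.43% unthinned), with intervals of 1.92 to 8.48 and 1.95 to 2.89 that overlap. It was found in 6.78% and 1.71% of them in the adult pulse (6.78% and 4.92% unthinned), again with overlapping intervals.

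Prkar2b, a regulatory subunit of the cAMP-dependent kinase, was at 246 CPM in E10-P56 members and 12.2 in pericyte-gated cells, and at 93.2 and 14.2 in the adult pulse. Cyp26b1, which breaks down retinoic acid, was at 80.0 and 1.35 CPM in E10-P56 and at 107 and 5.24 in the adult pulse. Its ratio to pericyte-gated cells was 59.2 in E10-P56, but rests on 2 UMIs in those cells and has an interval of 16.1 to 493. Piezo2, a mechanically gated channel, was at 103 CPM against 3.38 in E10-P56 and at 16.4 against 2.99 in the adult pulse, a 5.50-fold difference there with an interval of 1.304 to 26.5.

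Secreted and matrix-related members of the set included Adam12, Col12a1 and the complement gene C2. Col12a1 was at 140 CPM in SMCP-like and 10.13 in pericyte-gated cells of E10-P56, and at 35.6 and 5.24 in the adult pulse. S100a4, a calcium-binding protein of motile cells, was at 2041 CPM against 77.7 in E10-P56 and at 247 against 17.9 in the adult pulse, and fibroblast-gated cells held 845 and 393 CPM of it. Tmem176a, a membrane protein, was at 499 against 25.7 CPM in E10-P56 and at 595 against 41.1 in the adult pulse. Rab13 and Lgals3bp fell short of 2-fold in the adult pulse. Rab13, a small GTPase, was at 92.7 against 14.9 CPM in E10-P56 but at 32.9 against 26.9 in the adult pulse, where the intervals of both populations overlapped.

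Promoter sequences are shown for 3 of these genes. Rgs16 and Agt are leading genes without a match to the searched motifs. Il6 was the only gene with one among the promoters of the set that were searched. Each runs 5′ to 3′ on the gene's strand and holds the 250 bases before the RefSeq transcript start on GRCm38.p6, chr1:153740103-153740352 (+) for Rgs16, chr8:124569707-124569956 (-) for Agt and chr5:30012864-30013113 (+) for Il6. Capitals mark the match to the AP-1 motif TGANTCA.
Rgs16: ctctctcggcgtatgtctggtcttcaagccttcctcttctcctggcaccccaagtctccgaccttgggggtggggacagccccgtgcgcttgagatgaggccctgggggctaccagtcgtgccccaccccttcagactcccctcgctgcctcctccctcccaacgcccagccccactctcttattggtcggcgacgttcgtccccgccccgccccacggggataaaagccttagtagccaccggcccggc
Agt: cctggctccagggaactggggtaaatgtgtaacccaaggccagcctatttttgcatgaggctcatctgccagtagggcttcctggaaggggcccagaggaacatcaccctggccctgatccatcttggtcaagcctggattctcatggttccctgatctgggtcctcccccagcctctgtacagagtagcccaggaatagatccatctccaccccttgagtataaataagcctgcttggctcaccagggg
Il6: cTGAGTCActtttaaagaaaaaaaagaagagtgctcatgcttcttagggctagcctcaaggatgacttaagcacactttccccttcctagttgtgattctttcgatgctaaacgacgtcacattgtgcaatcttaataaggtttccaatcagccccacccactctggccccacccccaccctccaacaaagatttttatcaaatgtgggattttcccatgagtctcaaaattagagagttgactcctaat

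Promoters were searched for 10 of the 15 genes above both populations and for 7 of the 10 below both, and those of the remaining genes were not. AP-1 (TGANTCA) was found in 1 of the 10, Il6, against 6.75% of 32841 promoters of the same length. The cAMP response element (TGACGTCA, 1.55% of promoters), the CArG box of serum response factor (1.47%), the RBPJ motif of Notch signalling (GTGGGAA, 5.41%) and the NR4A motif (AAAGGTCA, 1.34%) were found in none of the 10. Among the 7 below both populations, Ltbp1 held TGACGTCA and Kcna5 held GTGGGAA. Both strands were searched, and a match is only a description of these letters.

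Of the 10 genes with the greatest margin below both other mural populations, 8 were also at least 2-fold below pericyte-gated cells in the adult pulse, and Adam22 and Timp4 were the exceptions. Those described here further include Tcf15, Slc35f1, Pgm5, Gfra2, Ltbp1, Atp8a1 and Kcna5. Tcf15, a transcription factor known from somites, was at 9.46 CPM in SMCP-like, 375 in pericyte-gated and 240 in VSMC-gated cells of E10-P56. The adult pulse gave 35.6, 529 and 95.7 CPM. Members were again below pericyte-gated cells, whereas the intervals of members and VSMC-gated cells overlapped. Ltbp1, which holds latent TGF-beta in the matrix, was at 15.1, 172 and 171 CPM in E10-P56 and at 49.3, 182 and 28.7 in the adult pulse.

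The other Rgs5-high cells of E10-P56 held 189 CPM of Tcf15, and the marker count bears on this gene. When 1 marker was enough to be a member, the ratio of Tcf15 to pericyte-gated cells went from 0.0252 to 0.0764, and with markers counted at 1500 UMIs it was 0.0125. Slc35f1, Gfra2 and Atp8a1 rested on 1, 3 and 3 UMIs in E10-P56 members, with ratios to pericyte-gated cells of 0.00687 (0.000172 to 0.0391), 0.0221 (0.00448 to 0.0666) and 0.0196 (0.00399 to 0.059).

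**Figure D2:**
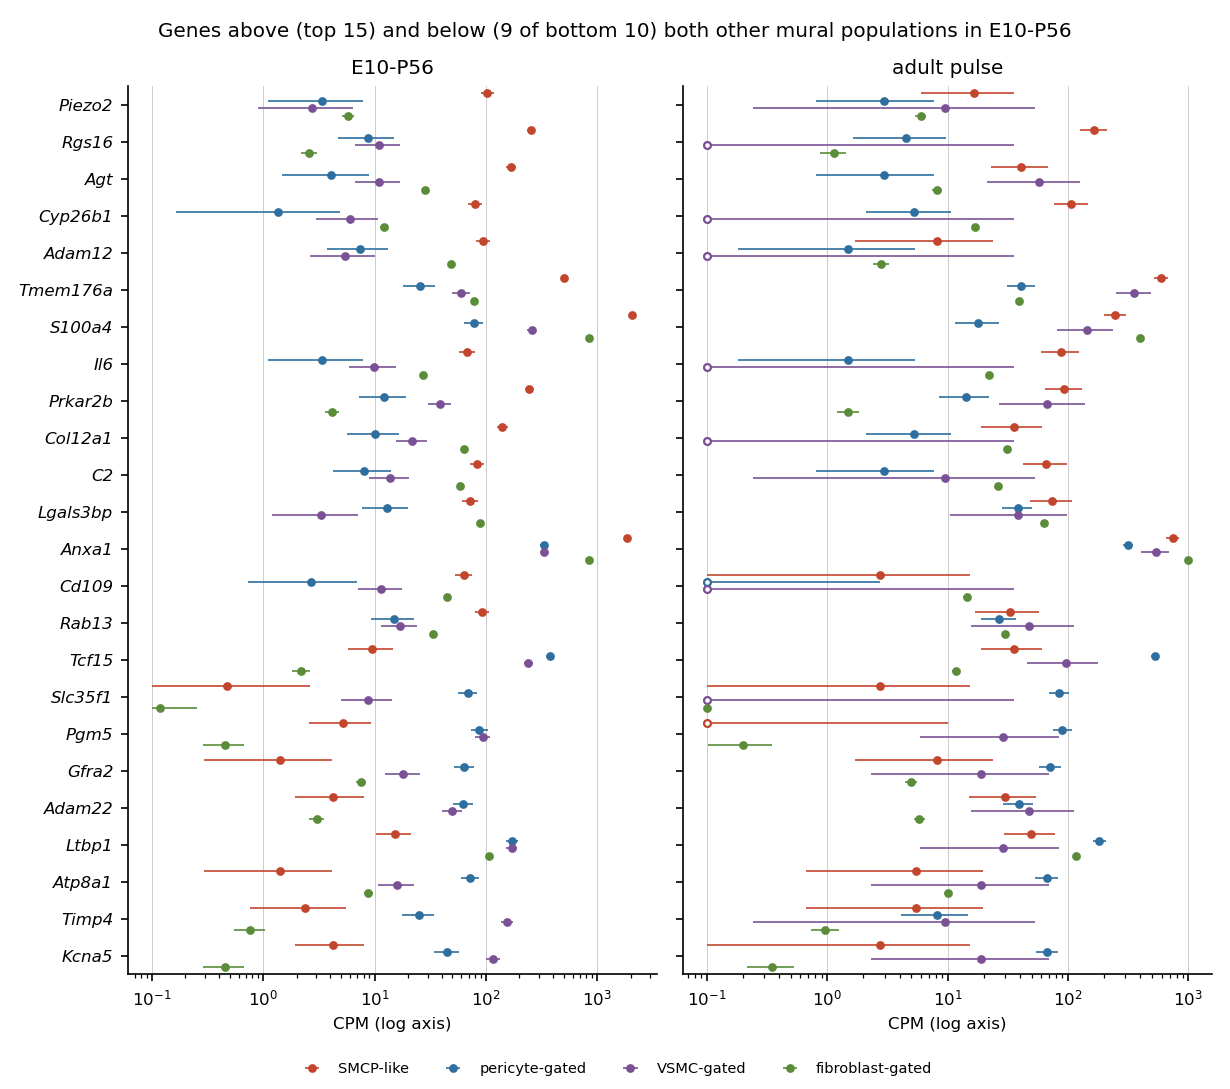
CPM (log axis) of the 15 genes above and 9 of the 10 below both other mural populations in E10-P56, in each gated population and library, with bars for 95% Poisson intervals and open points at the left edge for 0 UMIs. The SMCP-like points stand to the right of the other mural points for the upper genes and to the left for the lower genes in E10-P56, while in the adult pulse the VSMC-gated bars from 18 cells are wide and often overlap.

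Acta2 and Tagln sat between the other populations, and the contractile genes as a list were mixed against pericyte-gated cells. Of 30 VSMC contractile genes, 21 could be compared with pericyte-gated cells of E10-P56, where 10 were at least 2-fold higher in members, 3 lower and 8 between, with a median log2 ratio of 0.67 against -0.18 over all genes. The adult pulse had 5 of 20 higher and 2 lower. The shares of all genes higher and lower were 7.2% and 11.6% in E10-P56, and 6.84% and 9.31% in the adult pulse. The 2 of 20 lower in the adult pulse is near the share over all genes. Against VSMC-gated cells of E10-P56 none of 28 was higher and 23 were lower (median log2 ratio -2.24, against 0.08 over all genes), a direction that the limit on Myh11 and Sorbs2 fixes in large part. In that comparison 9.1% of all genes were higher and 9.51% lower.

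Acta2, smooth muscle actin, was at 4759 CPM in SMCP-like, 1265 in pericyte-gated and 16366 in VSMC-gated cells of E10-P56. In the adult pulse it was at 2834, 835 and 10815 CPM. The order was the same in both libraries and the 95% intervals of neighbours did not overlap. Tagln, an actin-binding protein of smooth muscle, followed with 2192, 831 and 12386 CPM in E10-P56 and 3021, 375 and 7800 in the adult pulse. Actg2, the enteric smooth muscle actin, was at 58.2 CPM in members against 2.03 in pericyte-gated cells of E10-P56, a 28.7-fold difference on 3 UMIs (9.60 to 141). In the adult pulse it was at 32.9 against 0 CPM, or 14.7-fold with the 0 UMIs set to 3 counts.

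Other contractile genes, chosen as examples from the list, stood at different places. Cnn1, calponin, was at 10.4 CPM in SMCP-like, 0.676 in pericyte-gated and 441 in VSMC-gated cells of E10-P56. Smtn, smoothelin, a marker of contractile smooth muscle, was at 26.0 CPM in members, 175 in pericyte-gated and 522 in VSMC-gated cells, so that members were the lowest, and at 27.4, 170 and 115 CPM in the adult pulse. Pln, phospholamban, was at 4.73, 8.11 and 575 CPM in the same order of E10-P56. Myocd, the master coactivator of smooth muscle genes, was at 8.52, 2.70 and 79.4 CPM. Casq2, calsequestrin, was at 55.8 CPM in members, 612 in pericyte-gated and 190 in VSMC-gated cells. Olfr558, an olfactory receptor of vessel walls, was 10.3-fold above pericyte-gated cells in E10-P56 (6.28 to 17.9) but 0.539-fold in the adult pulse (0.378 to 0.749).

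Pericyte transcripts were lower, as the limit on Abcc9, Kcnj8 and Art3 would fix for genes that follow them. Of 13 pericyte markers, 7 of 9 compared were at least 2-fold lower than in pericyte-gated cells of E10-P56 and 8 of 10 in the adult pulse, and Colec11 alone was higher in each. Of all genes compared, 11.6% were lower and 7.2% higher in E10-P56, and 9.31% and 6.84% in the adult pulse. Vtn, vitronectin, was at 220 CPM in members against 2893 in pericyte-gated cells of E10-P56, and at 655 against 3102 in the adult pulse. Steap4, a metalloreductase, was at 265 against 1643 CPM and at 611 against 1707. Colec11, a collectin of innate immunity, went the other way, at 59.1 against 4.05 CPM in E10-P56 and 195 against 5.98 in the adult pulse, with 19.2 and 163 in VSMC-gated cells. Compared with VSMC-gated cells of E10-P56, 5 of 8 pericyte markers were at least 2-fold higher in members and 1 lower. In that comparison 9.1% of all genes were higher and 9.51% lower.

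**Figure D3:**
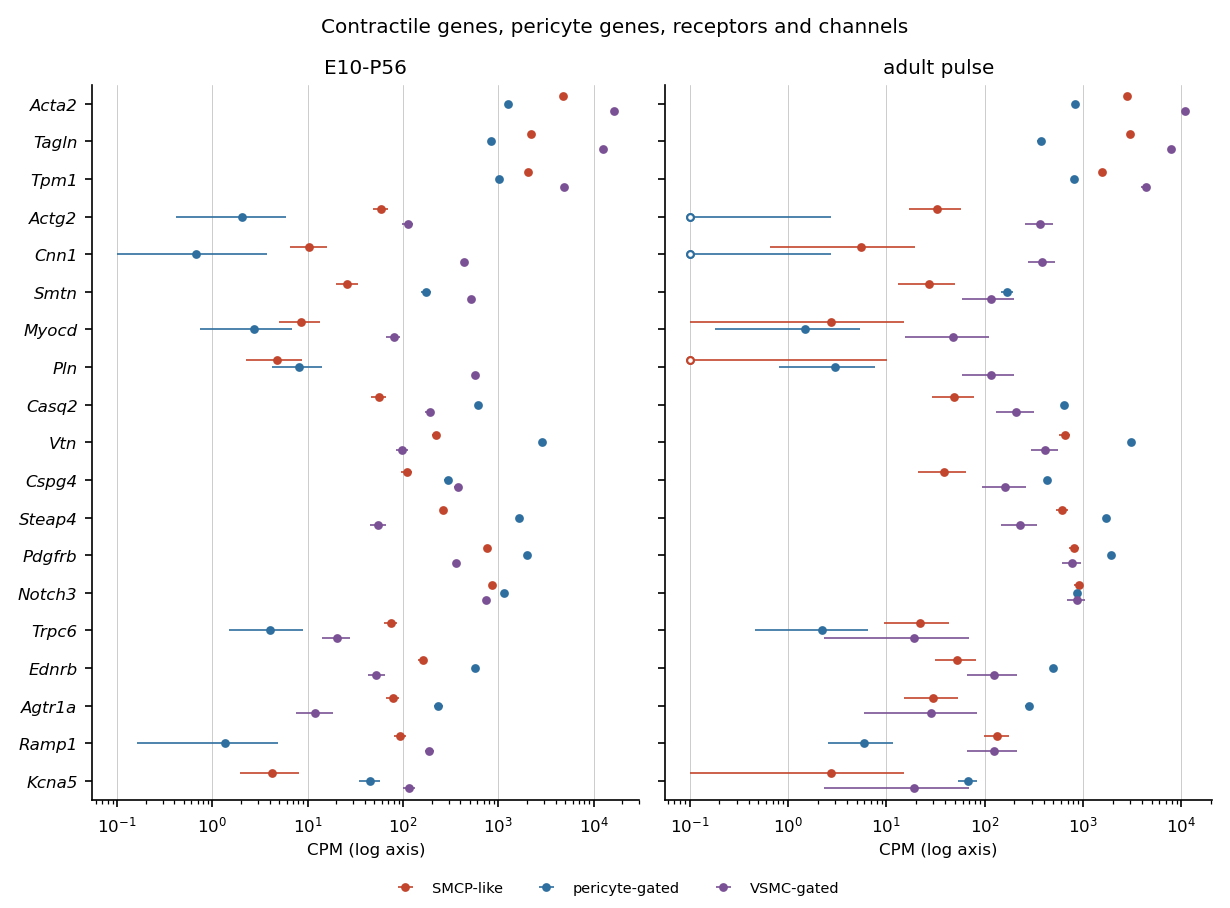
CPM (log axis) of contractile genes, pericyte genes, receptors and channels in SMCP-like, pericyte-gated and VSMC-gated cells of each library, with bars for 95% Poisson intervals and open points at the left edge for 0 UMIs. Acta2 and Tagln of the members lie between the other populations in both libraries, Smtn and Casq2 lie below both in both libraries, and Ramp1 and Trpc6 lie above pericyte-gated cells.

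Receptors that set vessel tone differed gene by gene. Of 9 adrenergic receptors, Adra2a was part of the rule and stood at 235 CPM in E10-P56 members and 219 in the adult pulse, against 20.3 and 14.96 in pericyte-gated cells. Adra2b was at least 2-fold lower in both libraries. It was at 6.15 CPM in members against 60.1 in pericyte-gated cells of E10-P56, and at 2.74 against 80.8 in the adult pulse.

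Of 44 other receptors of vessel tone, 11 could be compared with pericyte-gated cells of E10-P56, with 1 higher and 4 lower, and 14 in the adult pulse, with 1 higher and 5 lower. Over all genes compared with pericyte-gated cells, 7.2% were higher and 11.6% lower in E10-P56, and 6.84% and 9.31% in the adult pulse. Ramp1, the partner that turns the Calcrl receptor into the receptor for the vasodilator CGRP, was the higher gene in both. It was at 93.7 CPM in SMCP-like, 1.35 in pericyte-gated and 188 in VSMC-gated cells of E10-P56, and at 134, 5.98 and 124 in the adult pulse. Calcrl itself was at 38.3 CPM in members and 39.9 in pericyte-gated cells of E10-P56. The endothelin receptor Ednrb was at 160 against 566 CPM and the angiotensin receptor Agtr1a at 77.6 against 234, both above VSMC-gated cells at 52.6 and 12.0. S1pr3, a sphingosine 1-phosphate receptor, was at 101 against 443 CPM and below both populations.

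Of 27 calcium handling genes, 15 were compared with pericyte-gated cells of E10-P56 (2 higher, 5 lower) and 14 in the adult pulse (1 higher, 5 lower), beside the same shares over all genes. Trpc6, a receptor operated cation channel, was at 74.3 against 4.05 CPM in E10-P56 and at 21.9 against 2.24 in the adult pulse, where its 8 and 3 UMIs gave a ratio of 9.77 (2.35 to 57.2). Of 24 potassium channels, 3 were in the rule and 3 could be compared in the adult pulse, where Kcna5 was lower. Kcna5, a voltage-gated channel of arterial muscle, was at 4.26 CPM in members, 44.6 in pericyte-gated and 116 in VSMC-gated cells of E10-P56.

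Besides Rgs16, the study names Ifitm1, Nr4a1 and Thy1 for these cells. They were not in the rule, but the study chose them on these samples, so they are no independent evidence. These 3 were at least 2-fold above pericyte-gated cells in both libraries. Fabp4, listed with them here, was above in E10-P56 and 1.86-fold higher in the adult pulse. Ifitm1, an interferon-induced membrane protein, was at 457 CPM in SMCP-like, 98.6 in pericyte-gated and 20.3 in VSMC-gated cells of E10-P56, and at 419, 130 and 86.1 in the adult pulse. Its relatives Ifitm2 and Ifitm3 were within 2-fold of pericyte-gated cells in both libraries. Thy1, a surface protein of stromal cells, was at 379, 79.7 and 39.4 CPM, and at 219, 84.5 and 38.3. Thinned to 1500 UMIs, it was found in 37.9% of E10-P56 members (83.5% unthinned) and 11.4% of fibroblast-gated cells (42.6% unthinned), and in 22.03% and 17.8% of those of the adult pulse (37.3% and 50.3% unthinned). Fabp4, a fatty acid binding protein of adipocytes and capillaries, was at 4279, 1276 and 877 CPM in E10-P56 but at 902, 485 and 1771 in the adult pulse. A list of 16 genes, drawn mostly but not fully from those the study names for mural and Hic1 lineage cells, had 6 of 13 higher and 3 lower than in pericyte-gated cells in each library, and 4 of 14 higher and 7 lower than in VSMC-gated cells of E10-P56. Against pericyte-gated cells, 7.2% of all genes were higher and 11.6% lower in E10-P56, and 6.84% and 9.31% in the adult pulse. Against VSMC-gated cells the shares were 9.1% and 9.51%. Pdlim3, a PDZ and LIM domain protein of muscle that the study names for VSMCs and the list lacks, was at 22.2 CPM in members, 7.43 in pericyte-gated and 286 in VSMC-gated cells of E10-P56, and at 19.2, 16.5 and 201 in the adult pulse.

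The immediate early genes, which respond within minutes to signals and also to tissue dissociation, were often higher than in pericyte-gated cells. Of 23 listed, 17 were compared with pericyte-gated cells in each library. In E10-P56 12 were at least 2-fold higher and none lower (median log2 ratio 1.17), and in the adult pulse 11 and none (1.20), where 7.2% and 6.84% of all genes were higher and the medians over all genes were -0.18 and -0.16. Fos was at 1293 CPM in SMCP-like and 199 in pericyte-gated cells of E10-P56, and at 2168 and 577 in the adult pulse. Cyr61, a matricellular target of YAP and serum response factor, was at 612 against 109 CPM and at 817 against 139. Against VSMC-gated cells of E10-P56, none of 18 was higher, 4 were lower and 14 lay within 2-fold, beside 9.1% higher and 9.51% lower over all genes. Fos stood at 1306 CPM in those VSMC-gated cells. Fibroblast-gated cells held 890 CPM of Fos in E10-P56 against 1530.0 in the adult pulse, so that pericyte-gated cells held the least of the 4 populations in both libraries. How far cell isolation moved these genes was not tested.

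Of 47 transcription factors of mural and mesenchymal cells, 29 were compared with pericyte-gated cells of E10-P56 (4 higher, 6 lower, 19 between) and 32 in the adult pulse (6 higher, 5 lower, 21 between). Among all genes 7.2% were higher and 11.6% lower in E10-P56, and 6.84% and 9.31% in the adult pulse. Prrx1, a limb mesenchyme factor, was at 689 CPM in SMCP-like, 237 in pericyte-gated and 239 in VSMC-gated cells of E10-P56, and at 926, 236 and 651 in the adult pulse. Pparg was at 60.1, 19.6 and 18.6 CPM, and at 49.3, 20.2 and 57.4. Hic1, whose locus drove the Cre, was at 34.5 CPM in members, 197 in pericyte-gated and 9.86 in VSMC-gated cells of E10-P56, and at 43.9, 145 and 9.57 in the adult pulse. The members of both libraries thus held less Hic1 than pericyte-gated cells beyond counting error.

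The tdTomato reporter itself was at 2037 CPM in SMCP-like, 2298 in pericyte-gated and 2271 in VSMC-gated cells of E10-P56, and at 2810, 3234 and 2823 in the adult pulse, with at least 1 UMI in every member. CreERT2 gave 1 UMI in E10-P56 members and 2 in those of the adult pulse, and 12 and 9 UMIs in pericyte-gated cells. In the Notch pathway (24 genes), 11 were compared with pericyte-gated cells in each library, with 1 higher and 4 lower in E10-P56 and 0 and 3 in the adult pulse. The single higher gene of 11 is near the share over all genes (7.2%), of which 11.6% were lower. In the adult pulse 6.84% of all genes were higher and 9.31% lower. Heyl, a Notch target of vessel walls, was at 74.8 against 305 CPM and at 151 against 443. Nrarp, a feedback inhibitor of Notch, was at 97.9 against 48.0 CPM in E10-P56 and at 57.6 against 48.6 in the adult pulse.

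Angpt1, Angpt2 and Pdgfa, growth factors for vessels, were among the higher genes. Of 17 PDGF, angiopoietin and VEGF genes, 8 were compared with pericyte-gated cells of E10-P56 and 10 in the adult pulse. Pdgfa, Angpt1 and Angpt2 were at least 2-fold higher in both, Vegfa and Flt1 in the adult pulse, and Pdgfrb was lower in both. Flt1 is also one of the endothelial markers that stood higher in the adult pulse with Aqp1 and Ly6c1, and the part of endothelial RNA in its value was not tested. All genes gave 7.2% higher and 11.6% lower in E10-P56, and 6.84% and 9.31% in the adult pulse. Angpt1, the angiopoietin that steadies vessels through endothelial Tie2, was at 56.3 CPM in members against 4.05 in E10-P56 and 65.8 against 5.98 in the adult pulse. Pdgfa was at 594 against 132 CPM and at 260 against 86.0. Of 20 basement membrane genes, 2 of 15 were higher and 1 lower than in pericyte-gated cells of E10-P56, and 1 higher and 4 lower of 15 in the adult pulse, where the share higher is near that of all genes. Against VSMC-gated cells of E10-P56, 9 of 17 were higher and 4 lower, beside 9.1% higher and 9.51% lower over all genes. Col18a1, the source of endostatin, was at 1283, 89.8 and 451 CPM in SMCP-like, pericyte-gated and VSMC-gated cells of E10-P56, and at 167, 33.7 and 230 in the adult pulse.

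The collagen genes Col1a1 and Col3a1 were higher too, and here the fibroblast transcripts of a few members bear on the values. Of 16 fibroblast markers, 3 of 14 were at least 2-fold higher than in pericyte-gated cells of E10-P56 (Col1a1, Col3a1 and Cxcl14) and none lower, and 6 of 16 higher and 2 lower in the adult pulse. With all members kept, 7.2% of all genes were higher and 11.6% lower in E10-P56, and 6.84% and 9.31% in the adult pulse. Without the members that held fibroblast markers, which were chosen on 4 genes of the list and taken out of the SMCP-like cells alone, 2 of 12 were higher (Col1a1 and Col3a1) and 6 lower in E10-P56, and 1 of 14 higher (Col3a1) and 10 lower in the adult pulse. The 1 of 14 higher is near the share over all genes. The median log2 ratio of the list went from 0.27 to -1.002 in E10-P56 and from 0.78 to -1.58 in the adult pulse. Col3a1 was at 5481 CPM in members against 1414 in E10-P56, and at 3593 against 959 in the adult pulse. Without the 15 and 4 members that held fibroblast markers, an alternative added after seeing the data, Col3a1 was at 4436 and 3164 CPM. Dcn in contrast went from 614 to 184 CPM in E10-P56 and from 1516 to 280 in the adult pulse, and Cxcl14 from 51.1 to 14.98 and from 46.6 to 13.7. The Cxcl14 ratio to pericyte-gated cells of E10-P56 then went from 2.04 to 0.600, so that its call as higher rested on these cells.

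Of 14 lipid handling genes, 5 of 9 were higher and 1 lower than in pericyte-gated cells of E10-P56, and 2 of 7 higher and 1 lower in the adult pulse. The counts of this and the next lists rest on few genes, and stand beside 7.2% higher and 11.6% lower over all genes in E10-P56, and 6.84% and 9.31% in the adult pulse. Cd36, the fatty acid transporter of capillaries, was the lower gene, at 167 against 997 CPM in E10-P56 and 236 against 1298 in the adult pulse. Fabp5 was at 511 against 224 CPM in E10-P56 and at 68.5 against 86.8 in the adult pulse. Of 20 imprinted growth genes, 3 of 10 compared were lower in E10-P56 and 2 of 9 in the adult pulse, and none was higher. Igf2 was at 18.9 against 130 CPM in E10-P56 and at 95.9 against 111 in the adult pulse. Of 24 MHC class I genes, none of 5 compared was past 2-fold from pericyte-gated cells of E10-P56, and Tap2 alone was lower of 7 in the adult pulse. H2-K1, H2-D1 and B2m, 3 of 5, were at least 2-fold above VSMC-gated cells of E10-P56, as were 9.1% of all genes. None of 4 sex-linked genes compared was past 2-fold in either library.

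The difference from pericyte-gated cells was repeated in part by the adult pulse. Of 5364 genes compared in both libraries, 354 were at least 2-fold higher in E10-P56. Of these, 184 (52.0%) were also 2-fold higher in the adult pulse, which is 59.5% of the 309 higher there, 337 (95.2%) had a ratio above 1, and 1 was 2-fold lower. Of 637 at least 2-fold lower in E10-P56, 243 (38.1%) were 2-fold lower in the adult pulse, which is 47.6% of the 510 lower there, 555 (87.1%) had a ratio below 1, and 4 were 2-fold higher. The pericyte-gated cells were called separately in each library and share no cells. Both libraries passed through the same gates, which fix part of this overlap.

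**Figure D4:**
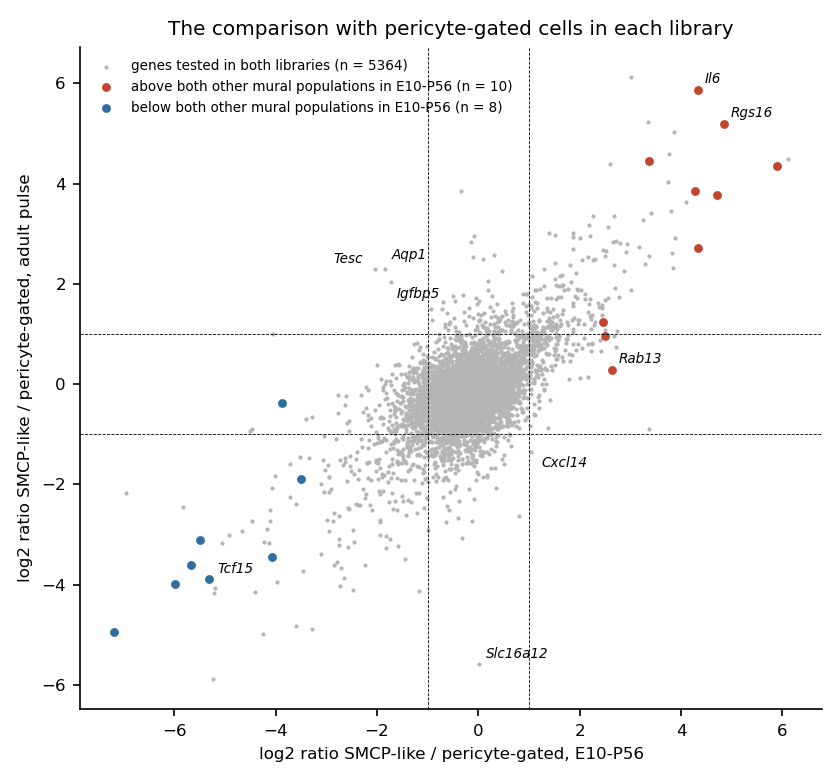
Each grey point is a gene compared in both libraries (5364), placed by its log2 ratio of SMCP-like to pericyte-gated cells in E10-P56 (x axis) and in the adult pulse (y axis), with dashed lines at 2-fold and coloured points for the named genes above and below both other mural populations in E10-P56. Most coloured points lie on the same side in both libraries, and Igfbp5, Tesc and Aqp1 lie on opposite sides, Aqp1 no longer so without the highest doublet scores (adult pulse ratio 0.872).

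Of the 10 genes highest over pericyte-gated cells in E10-P56, 8 were at least 2-fold higher in the adult pulse and 2 (Prc1 and Top2a) had too few UMIs for a ratio. The highest was Itga4, an integrin subunit, with 136 UMIs in members and 1 in pericyte-gated cells, or 64.4 against 0.676 CPM (95.3-fold, 16.8 to 3790), and 13.7 against 1.496 CPM in the adult pulse (9.16-fold, 1.5 to 96.2). VSMC-gated cells of E10-P56 held 50.4 CPM of it. Of the 10 lowest, 9 were at least 2-fold lower in the adult pulse too, and Pla2g7 was the exception. Pla2g7, a phospholipase, was at 1.42 CPM in members and 56.7 in pericyte-gated cells of E10-P56, but at 16.4 and 1.496 in the adult pulse, where the 2 UMIs of the pericyte-gated cells put their own level 37.9-fold below that of E10-P56 (10.2 to 318).

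Proliferation transcripts came from few cells. In E10-P56 12 of 182 members (6.59%, 3.45 to 11.2) held at least 3 of 7 cycling markers, and these cells carried 520 of the 574 UMIs of the list. Their median depth was 17695 UMIs. The same was true of 0 of 411 pericyte-gated cells (up to 0.894% at the upper bound), 1 of 213 VSMC-gated cells and 94 of 4271 fibroblast-gated cells (2.20%, 1.78 to 2.69, with a median of 37564.5 UMIs in those cells). Among adult pulse members it was 1 of 59. The cells with these markers were deep in each population, and the part of depth was not tested. Top2a, the topoisomerase of dividing cells, was at 53.0 CPM in E10-P56 members and 3.67 without the 12 cells, which moved its ratio to pericyte-gated cells from 39.2 to 2.72.

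Directly between the libraries, 409 of 5640 genes (7.25%) were at least 2-fold higher in SMCP-like cells of E10-P56 than of the adult pulse, and 416 (7.38%) at least 2-fold lower, with a median log2 ratio of 0.05. The 8 highest were Olfr78, Tpm3-rs7, Mmp3, Cd109, Gm10260, Top2a, Slc16a12 and Cenpf, and the 8 lowest Gm20594, Hgf, Gm15564, Vit, Inmt, Gdf10, Scg3 and Olfml2a. Members that held cycling markers were 12 cells of the E10-P56 library and 1 adult pulse cell. Without them, Top2a was at 3.67 CPM and Cenpf at 2.10 in E10-P56. The 58 adult pulse members left held 0 UMIs of both genes, so the differences were no longer measurable. Among all 59 adult pulse members Cenpf was already at 0, whereas Top2a was not. Mmp3, a matrix protease, was at 66.7 CPM in E10-P56 members, and at 10.2 when markers were counted at 1500 UMIs. Several of the 16 genes also differed in pericyte-gated cells. Gm20594 and Gm15564 had no UMI in SMCP-like, pericyte-gated or VSMC-gated cells of E10-P56 and 84 and 26 UMIs in members of the adult pulse. Tpm3-rs7 and Gm10260 resemble processed copies of other genes, so reads may be split between copies, and they were also higher in pericyte-gated cells of E10-P56 (13.5-fold for Tpm3-rs7). Olfr78, an olfactory receptor of vessel walls, was at 109 CPM in E10-P56 members and at 2.74 on 1 UMI in the adult pulse (39.9-fold, 7.09 to 1582), and at 76.3 and 10.5 in pericyte-gated cells.

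Others differed in the members and less in pericyte-gated cells. Hgf, a growth factor for muscle stem cells and endothelium, was at 0.946 CPM on 2 UMIs in E10-P56 members and 52.1 in those of the adult pulse (0.0182, 0.00205 to 0.0753), with 0 UMIs in pericyte-gated cells of both libraries. Vit, vitrin, a matrix protein, was at 2.84 and 65.8 CPM in members and 4.05 and 5.98 in pericyte-gated cells. Mgp, matrix Gla protein, which holds back calcification, was at 1693 and 6137 CPM in members, and at 1060 and 2344 in pericyte-gated cells. Gdf10 and Inmt, which fibroblast-gated cells of the adult pulse hold at 78.1 and 377 CPM, were at 63.0 and 49.3 CPM in members of the adult pulse, and at 0 and 3.42 without the 4 members that held fibroblast markers. Hgf without them was at 64.9 CPM and Mgp at 6187.

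Of 16 fibroblast markers, 1 was higher and 9 were lower in E10-P56 members than in those of the adult pulse. Without the members that held fibroblast markers, 1 of 10 compared was higher (Col1a1) and 1 lower (Mfap5). Those members were chosen on Pdgfra, Dpt, Ly6a and Cd34, which are 4 of the 9 lower genes, and fewer genes passed the limit on CPM, so the smaller count is in part fixed by the choice. Over all genes 7.25% were higher and 7.38% lower. Pericyte markers had 2 of 9 higher (Cspg4 and Cox4i2) and 4 lower, among them Vtn, Colec11 and Steap4. Of 9 lipid handling genes 4 were higher (Fabp4, Fabp5, Cebpa and Angptl4) and none lower, and of 10 other vessel tone receptors 3 were higher (Agtr1a, Ednrb and Avpr1a) and Ramp2 lower. Immediate early genes had 1 of 18 higher and 5 lower. All 3 cycling markers compared were higher, on the few cells described above. Of 23 contractile genes 3 were higher, Mylk, Des and Map3k7cl, and 2 lower. Mylk, the myosin light chain kinase, was at 1051 CPM in E10-P56 members and 515 in the adult pulse, and Des, desmin, at 805 and 277. These are differences between libraries, and labelling time cannot be told apart from the rest.

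Gm42418 and Malat1 varied most among the members of both libraries, followed by collagen genes, Gsn and Acta2 in E10-P56 and by Mgp, Fos and Mt1 in the adult pulse. After thinning each cell to 1500 UMIs, the variance over cells was compared with that of random sampling, for which the median ratio was 1.09 over 1633 genes in E10-P56 and 1.09 over 1561 in the adult pulse. Leading genes of E10-P56 were Gm42418 (23.3), Malat1 (21.8), Gsn (12.8), Col3a1 (11.3), Col1a1 (9.90), Acta2 (8.99), Dcn (8.04), Cenpf (6.96), Col1a2 (6.68) and S100a6 (6.51). Those of the adult pulse were Gm42418 (40.3), Malat1 (25.4), Mgp (24.01), Fos (12.0), Mt1 (9.79), Fabp4 (8.42), Dcn (7.89), Gsn (7.66), Hes1 (7.34) and Cebpb (6.93). Gm42418 is known to overlap ribosomal RNA sequence, and Malat1 is a nuclear RNA. In E10-P56 Gsn, gelsolin, went from 1572 to 752 CPM without the 15 members that held fibroblast markers, and Cenpf, a kinetochore gene, from 117 to 2.10 CPM without the 12 that held cycling markers.

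The spread within the members was wide for Acta2 and Tagln, the contractile genes described per cell. Acta2 per cell had a median of 3495 CPM in E10-P56, a lower quartile of 1415, an upper quartile of 6170 and a highest cell at 25173. Adult pulse members had a median of 2320 and a highest cell at 10618. Tagln had medians of 1293 and 2299 CPM, with 13 and 3 cells at 0. Rgs5 had medians of 6798 and 5963. Fabp4 had a median of 4058 in E10-P56 with 7 of 182 cells at 0, whereas 30 of 59 cells were at 0 in the adult pulse, whose cells were shallower. The part of depth in these zeros was not tested.

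**Figure D5:**
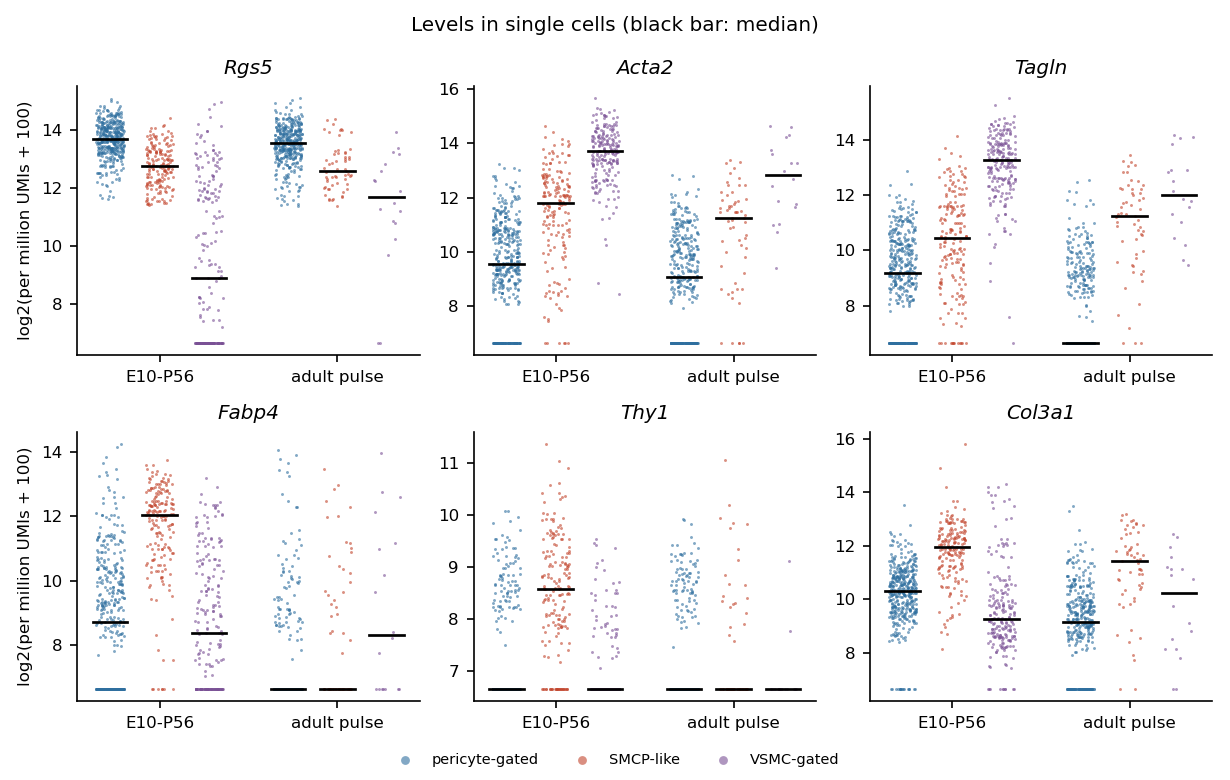
Levels of 6 genes in single cells (log2 of the cell's CPM plus a constant) in pericyte-gated, SMCP-like and VSMC-gated cells of each library, with black bars for medians and cells without a UMI on the lowest line. Acta2 and Tagln of the members overlap both other populations without reaching the highest VSMC-gated cells. Fabp4 is high in nearly all E10-P56 members but at 0 in 30 of 59 cells of the adult pulse.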

How the data were processed

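For each library the authors deposited whole UMI counts of every gene in every barcode, aligned by Cell Ranger to mm10 with tdTomato, CreERT2 and SSM2GFP added. The file headers name Cell Ranger 5.0.0 (E10-P56) and 3.0.2 (adult pulse), the labels give the 3' v2 or v3 kit for both, and the study's methods give v3 for muscle taken at P56. There were 8236 barcodes with 67460919 UMIs for E10-P56, 9195 with 69153173 for the adult pulse and 28001 features. The libraries shared 15 barcodes, 2 of them members in E10-P56.

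Barcodes below 1500 UMIs or above 10% mitochondrial UMIs were left out, no doublets were removed, and populations were gated without clustering. Scrublet, as in scanpy 1.11.5, marked 39 cells (0.641%) and 15 cells (0.175%) as doublets. So few calls were not relied on, and whether the calling worked was not tested. The highest 5% of scores were left out as an alternative. UMIs were summed per population and divided by the population's total (CPM), with Python 3.11.15, numpy 2.4.6, scipy 1.17.1 and pandas 2.3.3. Genes of a mean of at least 25 CPM over the populations compared were counted as higher or lower past 2-fold. Populations with 0 UMIs of a gene were set to 3 counts, per population, for a bound that leaves out the counting error of the other population. The interval of a ratio is the exact conditional binomial one. Groups of 1 library allow no test.

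Named genes, with the 11 genes of the rule left out, were the 15 above and 10 below both other mural populations by the smaller margin, the 10 highest and lowest against pericyte-gated cells, the 8 highest and lowest between libraries, and the 10 most variable per library, with list members past 2-fold or most abundant as examples, genes the study names for mural cells, tdTomato, CreERT2 and Hic1. Some genes that meet this rule are not reported here. The members and the 28 gene lists were chosen with earlier results of these data known. Promoters are from RefSeq (GRCm38.p6), gene positions from GENCODE M21 (GRCm38). Steps were tested on simulated data. VSMC-gated cells of the adult pulse (18) were too few for counts of genes.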

Additional observations from a re-analysis of the deposited data

Results flagged for a closer look

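For 5 of the 5364 genes that passed the limit of 25 CPM in both libraries, the ratio of SMCP-like to pericyte-gated cells was at least 2-fold on opposite sides in the 2 libraries. Each was measured in 1 library a group, and the difference between the libraries was not tested. Igfbp5, an IGF binding protein, had a ratio of 0.302 in E10-P56 (0.272 to 0.334) and 4.13 in the adult pulse (3.72 to 4.58), with 258 and 2132 CPM in members. Tesc, a calcium-binding regulator of sodium exchange, had ratios of 0.244 and 4.89, with 94.2 and 65.8 CPM in members and 386 and 13.5 in pericyte-gated cells, so the pericyte-gated level was the one that differed. Aqp1, the water channel of capillary endothelium, had ratios of 0.280 and 4.89, the latter 0.872 without the highest doublet scores, which ends its place among the 5. Gsta4, a glutathione transferase, had ratios of 0.392 and 3.66. In E10-P56 the Gsta4 ratio was 0.642 with the mean over cells of per-cell CPM, no longer past 2-fold. The Aqp1 ratio there was 0.719 with 1 of 5 markers. Cxcl14, a chemokine of fibroblasts, had ratios of 2.04 and 0.392, on 51.1 and 46.6 CPM in members that were 14.98 and 13.7 without those holding fibroblast markers. Its ratios were then 0.600 and 0.115, on the same side of 1 in both libraries. SSM2GFP, a transgene feature of the modified genome that the genotype in the labels does not name, gave 4 UMIs in SMCP-like cells of E10-P56 and 17 in those of the adult pulse, and was at 3.80 and 14.4 CPM in fibroblast-gated cells.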

How the results depend on the processing

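Every alternative below is described by counts, since no test was possible, and the cause of a difference was not tested unless its construction shows it. Another limit on mean CPM tests more or fewer genes. With a limit of 10, of 50 and with none, in that order, the genes at least 2-fold lower than in pericyte-gated cells numbered 1229, 389 and 2090 for E10-P56, against 1030, 292 and 1456 for the adult pulse. Those higher were 789, 228 and 1299 for the adult pulse. For E10-P56 they were 1278 with none. Against VSMC-gated cells the higher genes were 849, 302 and 1654 and the lower 862, 333 and 1628. Genes above both populations were 262, 103 and 598 and below both 314, 94 and 550. Between the libraries the higher genes in E10-P56 members were 763, 206 and 1180 and the lower 917, 183 and 1794.

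With every cell thinned to 1500 UMIs, 667 genes were higher and 877 lower than in pericyte-gated cells of the adult pulse, 283 were below both populations in E10-P56, and 714 were higher and 754 lower between the libraries. With 3 of 5 markers required, 662 were lower between the libraries.

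Members made up, for E10-P56 first and the adult pulse second, 3.70% and 1.12% with 1 of 5 markers, 2.56% and 0.315% with 3, 2.45% and 0.432% with a stricter pericyte limit, 2.32% and 0.490% with a stricter VSMC limit, 2.10% and 0.455% with a stricter Rgs5 minimum, and 1.89% and 0.350% with markers counted at 1500 UMIs, which was added after seeing the data. A mitochondrial limit of 5% gave 0.398% in the adult pulse. E10-P56 held the larger share under each of these settings run in both libraries.

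Of 911 recomputed ratios of named genes, 825 stayed within their counting interval. Another 79 left it on the same side of 1, toward or away from 1, and 7 changed sides. Cxcl14 against pericyte-gated cells went from 2.04 to 0.600 in E10-P56 without members that held fibroblast markers and to 0.852 without the highest doublet scores, and in the adult pulse from 0.392 to 1.32 with 1 of 5 markers. Aqp1 in the adult pulse went from 4.89 to 0.872 without the highest doublet scores. Between the libraries Cenpf went from 14.3 to 0.249 and Top2a from 19.3 to 0.436 without members that held cycling markers. Mmp3 went from 24.3 to 0.555 with markers counted at 1500 UMIs. These last 3 recomputed values are lower bounds, since the adult pulse members then held 0 UMIs and were set to 3 counts, and they give no direction. The Cenpf value of 14.3 is a lower bound too, on 0 UMIs in all adult pulse members. In all 16 ratios were no longer past 2-fold. Shares of cells with a UMI depend on the thinning depth. No paired analysis was possible because each group is 1 library. Leaving out a replicate was not possible either. At this depth, genes near 25 CPM rest on few UMIs in the 59 members of the adult pulse and the 18 VSMC-gated cells there.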
